A study of Mus musculus with 4 samples.

Results

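High-maximum regions are the places where CUT&RUN signal of phosphorylated Smads in mouse molar tooth germs peaked far above the level usual in its own peak list. CUT&RUN cuts chromatin around an antibody with tethered micrococcal nuclease and sequences the released fragments. The tooth germs came from wild-type CD1 embryos at E13.5, a stage of embryonic development counted in days, with no other allele or treatment named in the labels. One group of 2 libraries used an antibody against phosphorylated Smad1/5 (pSmad1/5) and one of 2 libraries used an antibody against phosphorylated Smad3 (pSmad3). Each antibody had 1 deposited peak list standing for its 2 libraries, and no control list was used here. Whole tooth germs hold dental epithelium, mesenchyme and other cells, and a peak list does not say which of them gave a signal. It also gives no expression level against which the labelled tissue could be checked.

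Each line of a list gives a region, the total signal in it, its maximum signal and the stretch of bases that holds the maximum, in the authors' own scaling. Lines with the same total, maximum and place of the maximum were counted as 1 call. A call on chromosomes 1 to 19 was taken as high when its maximum was over 2 times the list median, that is over 32 for pSmad1/5 and over 26 for pSmad3. This gave 462 of 8226 pSmad1/5 calls (842 lines), or 5.62%, and 362 of 7570 pSmad3 calls (391 lines), or 4.78%. Over the whole of both lists, 824 of 16062 calls were members. Of these, 127 pSmad1/5 calls exceeded 160 and 105 pSmad3 calls exceeded 130, which is 10 times the median. They are called the top class below, and the remaining 335 and 257 the middle class. The members were chosen by their maxima, so the size of a maximum is a description here and not a finding.

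Receptor-phosphorylated Smads enter the nucleus with Smad4 and bind short DNA motifs, usually beside other transcription factors. BMP receptors phosphorylate Smad1 and Smad5, whereas TGF-β and activin receptors phosphorylate Smad3. Both branches are used again and again as the tooth epithelium and mesenchyme signal to each other. As further background, any assay that counts aligned fragments can show high coverage over satellite DNA, ribosomal RNA genes and recently duplicated genes, whose copies share fragments.

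The sequences printed next show what some of these regions hold, all taken from RefSeq tables of the assembly GRCm38.p6, which is mm10. The tables give promoters from 250 bases before to 50 after a gene start. The Speer4c and Gm17019 promoters are shown because both lay under high-maximum calls of both antibodies in the same gene array. They differed at 6 of 300 positions, marked by capitals.
Speer4c, chr5:15714222-15714521, minus strand: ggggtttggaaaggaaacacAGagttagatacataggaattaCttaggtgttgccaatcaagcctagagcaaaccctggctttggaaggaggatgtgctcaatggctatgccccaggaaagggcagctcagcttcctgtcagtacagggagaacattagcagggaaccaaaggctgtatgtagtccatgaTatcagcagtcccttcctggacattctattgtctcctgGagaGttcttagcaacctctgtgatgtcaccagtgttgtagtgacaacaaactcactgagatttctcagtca
Gm17019, chr5:15032958-15033257, minus strand: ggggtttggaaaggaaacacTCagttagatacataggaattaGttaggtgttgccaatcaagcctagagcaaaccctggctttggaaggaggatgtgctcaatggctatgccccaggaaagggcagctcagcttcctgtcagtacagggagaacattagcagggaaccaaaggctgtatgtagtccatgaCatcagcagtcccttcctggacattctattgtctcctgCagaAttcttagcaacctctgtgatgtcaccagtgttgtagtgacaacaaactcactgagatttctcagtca
The next promoter is shown because it was letter for letter the same at 4 genes under 1 call of each antibody, Gm40369, Gm40367, Gm36327 and Gm40364. The first of these stands at chr6:47653742-47654041, plus strand.
Gm40369: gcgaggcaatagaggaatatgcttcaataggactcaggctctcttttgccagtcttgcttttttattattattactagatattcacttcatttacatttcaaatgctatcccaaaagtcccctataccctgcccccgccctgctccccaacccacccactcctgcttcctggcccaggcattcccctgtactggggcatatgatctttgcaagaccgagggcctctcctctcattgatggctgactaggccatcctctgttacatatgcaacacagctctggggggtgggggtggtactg
The Gm13822 promoter is shown because it was the only listed promoter that held the maximum of a high-maximum call of both antibodies. Its capitals mark the 10 bases from one maximum to the other.
Gm13822, chr5:114922212-114922511, minus strand: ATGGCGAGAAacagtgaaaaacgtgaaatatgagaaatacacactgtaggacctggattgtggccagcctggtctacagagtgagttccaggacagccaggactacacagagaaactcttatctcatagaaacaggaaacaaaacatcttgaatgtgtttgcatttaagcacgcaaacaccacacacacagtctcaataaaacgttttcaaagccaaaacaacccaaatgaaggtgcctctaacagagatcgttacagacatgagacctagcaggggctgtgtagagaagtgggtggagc
The microRNA miR-101c is shown as the 1 annotated gene under the call at the assembled start of chromosome 9, with its seed (bases 2 to 8) in capitals.
mmu-miR-101c, chr9:3038680-3038698, minus strand: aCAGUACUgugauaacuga

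High-maximum calls were few but held most of the signal. They carried 76.8% of the total signal of all pSmad1/5 calls on these chromosomes in 17.3% of the covered length, and 83.4% of the pSmad3 total in 11.8%. These shares follow in part from the rule, which took the highest maxima. They also rest largely on a few calls. A single call on chromosome 2 held 920389742 of the 2111824989 total for pSmad1/5 and 727019391 of 1501962008 for pSmad3. The call at the start of chromosome 9 held 339353409 and 264335740. The other calls lay in a narrow band, with an interquartile range of 14 to 18 for pSmad1/5 maxima and 12 to 15 for pSmad3 maxima. At the lower threshold, 9 pSmad1/5 calls stood just inside at 33 and 10 just outside at 32. The first inside by position was on chromosome 1 at 190299884 to 190304033, and the first outside on chromosome 12 at 23056671 to 23136103. For pSmad3, 16 calls stood just inside at 27 and 23 just outside at 26. The first inside was on chromosome 1 at 85292866 to 85347096 and the first outside, also on chromosome 1, at 84986160 to 84995439. Both of these lie within the span of a run of high-maximum calls on chromosome 1 described below.

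The highest places were the same for both antibodies, in the same order. Maxima at the 10 highest places, linking calls within 10 kb, fell into 6 very high ones and 4 more than 10-fold lower ones in both lists. The first was on chromosome 2 at 98661989 to 98667983 in the pSmad1/5 list, where the maximum was 2249140 for pSmad1/5 and 1736980 for pSmad3. Both maxima stood on base 98667133. The closest protein-coding gene was Lrrc4c, a synaptic adhesion gene, at 1035 kb. The second place, on chromosome 12 at base 3109948, reached 421853 for pSmad1/5 and 304111 for pSmad3. The third, on chromosome 14 at 19417308, reached 287844 for pSmad1/5 and 205934 for pSmad3. Neither of these touched a RefSeq gene, and their nearest coding genes, Rab10 and Gm2244, were 137 kb and 116 kb away. The fourth was the assembled start of chromosome 9, where both maxima stood on base 3000970, at 170615 for pSmad1/5 and 120275 for pSmad3. This call was 49978 bp long in the pSmad1/5 list and 42720 bp in the pSmad3 list, and it covered Mir101c.

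The fifth place was the only 1 of the 10 that lay in a protein-coding gene. It stood inside Chl1, which encodes a neural cell adhesion molecule, on chromosome 6, with 116409 for pSmad1/5 and 91291 for pSmad3 on adjoining bases, 103649207 and 103649206. The pSmad1/5 call there was only 353 bp long, and the pSmad3 call 1360 bp. The sixth, on chromosome 9 in the gene Gm33838, reached 111487 for pSmad1/5 and 78563 for pSmad3. After these 6 the maxima dropped more than 10-fold, to 8031 for pSmad1/5 and 4732 for pSmad3 at the distal end of chromosome 14. The eighth place, on chromosome 9 at 24542094, and the next places, at the distal ends of chromosomes 7 and 12, lay between 7.6 and 17.1 kb from the nearest coding genes, Dpy19l2, Mrgprd and Tmem196. Maxima at these 3 ran from 4671 to 6930 for pSmad1/5 and from 2582 to 4557 for pSmad3.

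Most calls of the top class had a partner in the other list. A partner is a call of the other antibody that overlapped by at least 1 bp, and whether one existed was not part of the rule. It existed for 111 of 127 top-class pSmad1/5 calls (87.4%, exact 95% Clopper-Pearson interval 80.3 to 92.6) and 104 of 105 top-class pSmad3 calls (99.0%, 94.8 to 100). In the middle class, 250 of 335 pSmad1/5 calls (74.6%, 69.6 to 79.2) and 237 of 257 pSmad3 calls (92.2%, 88.2 to 95.2) had one. Among the other calls the shares were 16.3% (15.5 to 17.1) for pSmad1/5 and 19.1% (18.2 to 20.1) for pSmad3. The intervals of both high classes lay wholly above those of the other calls. They cover counting error only, treat neighbouring calls as separate and say nothing of spread between libraries or embryos. Longer calls can meet a partner more easily. At the median, middle-class calls were longer than the other calls and top-class calls shorter, and call length was not matched.

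The partners were themselves mostly high. The classes given next are those of the partner with the largest overlap only. For 127 top-class pSmad1/5 calls it was top-class in 97, middle-class in 13, another call in 1 and absent in 16. For 105 top-class pSmad3 calls it was top-class in 100, middle-class in 4 and absent in 1. With any overlap counted, 111 of the 127 and 104 of the 105 overlapped a high-maximum call of the other list. Some of these partners are counted from both sides and several calls of one list can meet 1 call of the other, so the counts need not match. With a high partner required, 65.8% of pSmad1/5 and 86.2% of pSmad3 high-maximum calls were shared, against 0.592% and 1.43% of the other calls. The highest maximum of a call without a partner was 376 for pSmad1/5 and 162 for pSmad3. By this choice of cut, the 69 pSmad1/5 and 95 pSmad3 calls above it all had a partner.

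The highest calls without a partner were much lower than the highest shared ones. For pSmad1/5 the 16 unshared top-class calls had maxima from 168 to 376, with a median of 234.5. The first, at 376, lay on chromosome 4 at 64497524 to 64498497, 451 kb from Tnc, which encodes the matrix protein tenascin-C. The next were at 351 in Mamdc2 on chromosome 19 (23356000 to 23357623) and at 310 in Zfp949, a zinc finger gene on chromosome 9 (88553152 to 88553318). Each of these was a single line, from 167 to 1624 bp long. For pSmad3 only 1 top-class call was unshared, with a maximum of 162, on chromosome 3 at 152700816 to 152701915 in Gm32085. It was followed by calls at 108 and 81, near Apbb1ip and Cd209a, by one at 75 near Impact and by one at 72 in Gria1, a glutamate receptor gene. No partner means no deposited call of the other antibody at that place, and signal below the authors' calling threshold was not examined.

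**Figure D1:**
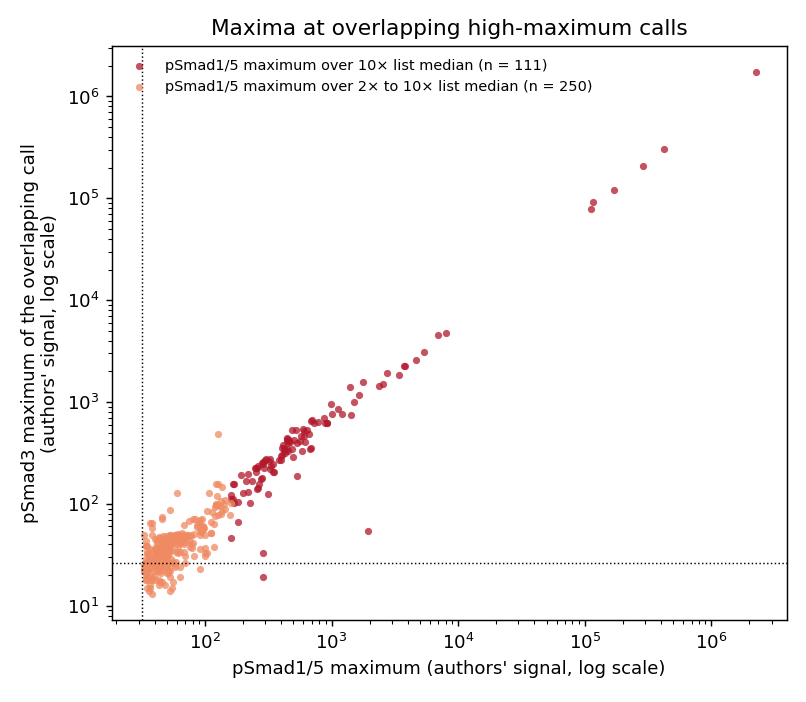
Maximum signal of each high-maximum pSmad1/5 call (x axis, log scale) against the maximum of the overlapping pSmad3 call (y axis, log scale), for 111 top-class calls (dark) and 250 middle-class calls (light), with dotted lines at 32 and 26. Most top-class points rise together up to 2249140 and 1736980, with 1 below the pSmad3 line, at 286 for pSmad1/5 and 19 for pSmad3. The middle-class points spread more widely, some below that line.

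The maxima of both antibodies kept nearly the same order across shared places. Over top-class calls with a partner, Spearman's rho between the 2 maxima was 0.92 for the 111 pSmad1/5 calls and 0.93 for the 104 pSmad3 calls. In the middle class it was 0.66 over 250 calls and 0.70 over 237, and among the other calls 0.42 over 1265 and 0.48 over 1380. These are descriptions across regions of 2 lists, which share the tissue, the protocol and the assembly. The classes differ in the range of their maxima, and the part of that range in rho was not tested. One point low in the plot of paired maxima is the pSmad1/5 call at Tmem267, with 1952. Its longest overlap was with a pSmad3 call of 54, while another pSmad3 call under it reached 1611.

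In most top-class pairs both antibodies reached their maximum at almost the same base. The distance between the centres of the 2 places of maximum had a median of 8 bp for top-class pSmad1/5 calls (interquartile range 3 to 19.5) and 8 bp for top-class pSmad3 calls (2.5 to 14.6). It was at most 50 bp in 93 of 111 pairs (83.8%, 75.6 to 90.1) and in 92 of 104 pairs (88.5%, 80.7 to 93.9), and at most 1 bp in 16 pairs each. In the middle class the medians were 700 bp for pSmad1/5 and 540 bp for pSmad3, with 29.6% (24.0 to 35.7) and 31.6% (25.8 to 38.0) of pairs within 50 bp. Other overlapping calls had medians of 3508 and 3560 bp, 2.37% (1.61 to 3.37) and 3.33% (2.45 to 4.42) within 50 bp, and 0 pairs within 1 bp. The place of maximum was not used by the rule, but narrower calls leave less room for a distance, and call length was not matched.

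**Figure D2:**
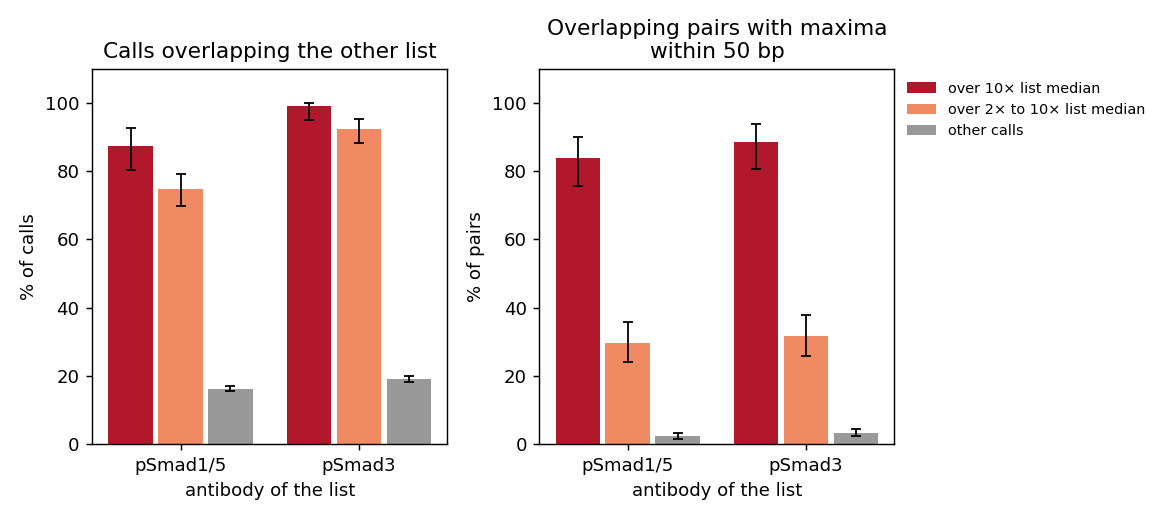
Percent of calls with a partner in the other list (left) and percent of partner pairs whose maxima lay within 50 bp (right), for pSmad1/5 and pSmad3 lists; bars are top-class, middle-class and other calls, and error bars are exact 95% intervals that cover counting error only. Both shares step down from the top class (87.4% and 99.0% on the left) to the other calls (16.3% and 19.1%).

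Top-class calls were short with a pointed maximum, and middle-class calls were long. The median span from first to last base was 1509 bp for top-class, 4427 bp for middle-class and 2609 bp for other pSmad1/5 calls. For pSmad3 it was 2071, 7364 and 4768 bp in the same order. The stretch at the maximum was 1 bp wide at the median in the top class of both lists, 7 bp in the middle class of both and 20 bp (pSmad1/5) or 27 bp (pSmad3) in the other calls. Total signal divided by the maximum gives the width that a flat block of that height would need. Its median was 317 bp for top-class, 1765 bp for middle-class and 3253 bp for other pSmad1/5 calls, and 312, 2336 and 2219 bp for pSmad3. A higher maximum lowers this ratio by its construction. The stretch is also read at the maximum, which the rule used, so both are descriptions and not findings. The longest pSmad1/5 member spanned 257763 bp and the longest pSmad3 member 209017 bp.

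High-maximum calls also held the place of the maximum within their span more often. It lay between the first and last base of the call for all 127 and 105 top-class calls. In the middle class the share was 94.0% of 335 pSmad1/5 and 97.7% of 257 pSmad3 calls. Among the other calls it was 37.0% and 71.3%. Gaps between the lines of a call were counted as part of its span. In the pSmad1/5 list 141 high-maximum calls were in several lines, up to 21 for 1 call, and in the pSmad3 list 23, up to 4. The sources do not say how the authors joined the libraries, and a line may be what 2 calls had in common.

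High-maximum calls lay outside genes more often than the other calls did. The maximum was outside every RefSeq gene and over 1 kb from its ends for 51.2% (42.2 to 60.1) of top-class pSmad1/5 calls and 52.4% (42.4 to 62.2) of top-class pSmad3 calls. In the middle class the shares were 46.3% (40.8 to 51.8) and 46.3% (40.1 to 52.6), and among other calls 31.7% (30.7 to 32.8) and 30.2% (29.1 to 31.2). Within 1 kb of a gene end the classes were alike within their intervals, with 11.02%, 13.4% and 12.6% for top-class, middle-class and other pSmad1/5 calls and 8.57%, 14.01% and 12.4% for pSmad3. The table has gene starts and ends but no exons, so introns and exons were not separated. Top-class calls were also the ones far from coding genes. They lay over 100 kb away in 26.8% (19.3 to 35.4) of pSmad1/5 and 27.6% (19.3 to 37.2) of pSmad3 calls, against 9.92% (9.26 to 10.6) and 8.09% (7.47 to 8.74) of the other calls.

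Middle-class calls touched pseudogenes far more often than the other calls did. A pseudogene lay under 69 of 335 middle-class pSmad1/5 calls (20.6%, 16.4 to 25.3) and 65 of 257 middle-class pSmad3 calls (25.3%, 20.1 to 31.1). The top class had 8.66% (4.40 to 14.97) and 6.67% (2.72 to 13.3), and the other calls 2.65% (2.31 to 3.04) and 3.22% (2.82 to 3.65). Longer calls touch more genes, and middle-class calls were the longest. Protein-coding genes went the other way, touched by 34.6% of top-class, 43.6% of middle-class and 60.5% of other pSmad1/5 calls and by 28.6%, 41.6% and 62.7% of pSmad3 calls. Many pseudogene calls stood side by side. With 1 call per place linked within 1 Mb, a pseudogene lay under 10.1% of pSmad1/5 and 12.6% of pSmad3 places, against 17.3% and 19.9% of all high-maximum calls.

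**Figure D3:**
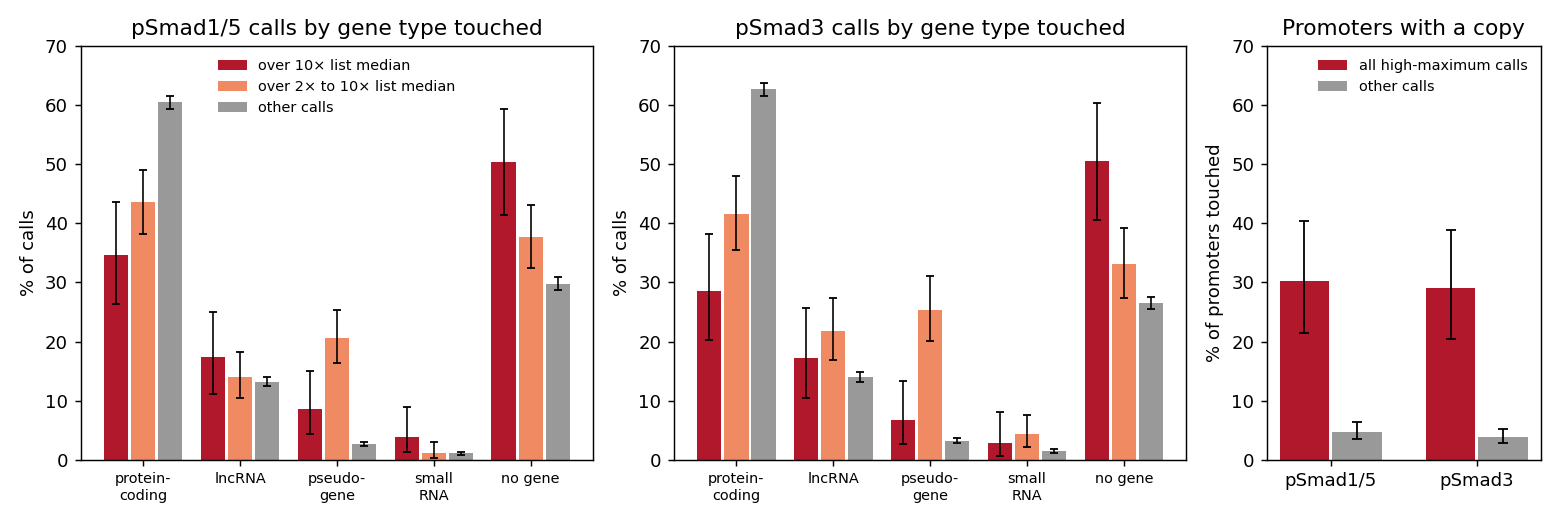
Percent of pSmad1/5 calls (left) and pSmad3 calls (middle) that touched each type of RefSeq gene or no gene, for top-class, middle-class and other calls, and percent of touched promoters with a copy at another gene (right) for all high-maximum and other calls. Error bars are exact 95% intervals covering counting error only; the middle class stands out for pseudogenes, at 20.6% and 25.3%.

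Promoters under high-maximum calls often had a near copy at another gene. A promoter was counted as copied when at least 50% of its 31-base words occurred in the promoter of 1 other gene. Of all 32851 listed promoters, 3.95% were copied. Among promoters touched by high-maximum calls, 30 of 99 (30.3%, 21.5 to 40.4) were copied for pSmad1/5 and 29 of 100 (29.0%, 20.4 to 38.9) for pSmad3. Among those touched by other calls the counts were 43 of 909 (4.73%, 3.44 to 6.32) and 45 of 1150 (3.91%, 2.87 to 5.20). By class, 10 of 29 top-class (34.5%) and 20 of 70 middle-class (28.6%) pSmad1/5 promoters were copied, and 0 of 11 top-class (0 to 28.5) and 29 of 89 middle-class (32.6%) pSmad3 promoters. The copied promoters came from only 9 runs of pSmad1/5 calls and 7 of pSmad3 calls. With only the first promoter by position kept per run, 9.38% for pSmad1/5 and 6.25% for pSmad3 were copied. A run whose copied promoters come later then counts as not copied, and the other calls were not thinned this way. The shares over all touched promoters rest on a few arrays of related genes. The part of copied sequence in the maxima was not tested.

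The arrays with copied promoters hold gene families. The Speer4c and Gm17019 promoters printed above lay under pSmad1/5 calls with maxima of 171 and 162 and pSmad3 calls with maxima of 104 and 122. These are top-class values for pSmad1/5 and middle-class values for pSmad3. The array on chromosome 5 from 14899291 to 15716131 held Speer4c, Speer4d and Speer4e, members of a mouse gene family expressed in the testis. The 4 identical promoters on chromosome 6 lay under 1 call of 40670 bp that reached 162 for pSmad1/5 and one of 40681 bp that reached 111 for pSmad3, with maxima 25 bp apart. That call also covered Rn4.5s, a small RNA gene. At Gm13822, whose promoter had no copy, the call reached 396 for pSmad1/5 and 270 for pSmad3, with maxima 9 bp apart in the capital letters shown.

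Short motifs that Smads are known to bind were not more frequent in these promoters than among all promoters listed. CAGAC, searched on both strands, was in 46 of 123 promoters touched by a high-maximum call of either list (37.4%) and in 49.6% of all promoters. GGCGCC, its own reverse complement, was in 9 of 123 (7.32%) and 11.9%. Both windows are 300 bases, and a match or its lack in this window says nothing of Smad binding.

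High-maximum calls clustered, and the clusters were mostly of the middle class. Calls linked within 1 Mb formed 267 runs for pSmad1/5, of which 204 were single calls, and 191 for pSmad3, of which 137 were single. The 7 pSmad1/5 runs with 5 or more calls held 115 of the 462 calls (24.9%) but only 3 of the 127 top-class calls. The 12 such pSmad3 runs held 125 of 362 calls (34.5%) and 5 of 105 top-class calls. Top-class calls stood alone in 72 pSmad1/5 and 61 pSmad3 runs.

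The largest run of both antibodies was in the zinc finger cluster of distal chromosome 4. From 145404863 to 147822223 it held 42 pSmad1/5 calls with maxima of 34 to 79, and from 145404946 to 147643893 it held 24 pSmad3 calls with maxima of 27 to 49. None of these reached the top class. The calls touched Rex2, Zfp600, Zfp978, Zfp980 and Zfp993, Krüppel-type zinc finger genes that lie in this cluster as close relatives, and vomeronasal receptor pseudogenes such as Vmn2r-ps17. Chromosome 4 had the highest share of high-maximum calls for pSmad1/5, at 10.4%. For pSmad3 the highest share was on chromosome 13, at 10.1%, and chromosome 15 was lowest in both lists, at 1.64% for pSmad1/5 and 1.43% for pSmad3.

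Several other large runs lay at the same places in both lists. One on chromosome 8, from 19680532 to 21019223 in the pSmad1/5 list, had 20 pSmad1/5 calls (maxima 34 to 162) and 18 pSmad3 calls (29 to 127). One on chromosome 7, from 37876462 to 39343556 in the pSmad1/5 list, had 20 pSmad1/5 calls (33 to 183) and 14 pSmad3 calls (29 to 104). One on chromosome 6, from 114340727 to 114630706 in the pSmad1/5 list, held 12 pSmad1/5 calls (40 to 126) and 9 pSmad3 calls (41 to 98) and touched no RefSeq gene. On chromosome 1, from 84954767 to 85651550, 10 pSmad1/5 calls (34 to 49) and 11 pSmad3 calls (27 to 45) covered Sp100, Sp110 and Sp140, genes of nuclear body proteins. Large runs did not always match. On chromosome 14, a run of 2 pSmad1/5 calls (maxima 50 to 425) and a single one at 92 overlapped the span of a run of 11 pSmad3 calls (27 to 332), from 6141736 to 8287115. On chromosome 13, 4 pSmad1/5 calls (33 to 46) lay from 65524840 to 66593604 and 9 pSmad3 calls (28 to 75) from 65328933 to 66722804. The span of the run on chromosome 1 holds the pSmad3 calls just inside and just outside the threshold given above.

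Arrays of small RNA genes were also among the members. On chromosome 7, from 59726765 to 59900601, calls over Snhg14 and its Snord116 small nucleolar RNA copies, an imprinted locus, had maxima of 50 to 237 for pSmad1/5 and 31 to 166 for pSmad3. A call over the ribosomal RNA gene Rn18s-rs5 on chromosome 17, from 39842976 to 39848829, reached 704 for pSmad1/5 and 667 for pSmad3, with the maxima 2182.5 bp apart. This distance is far above the top-class median of 8 bp. The 5S ribosomal RNA array on chromosome 8 had a pSmad1/5 call at 41 and pSmad3 calls at 29 and 27.

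The last call of many chromosomes was a top-class call. On 12 of the 19 autosomes the most distal calls of both lists ended at the same base and were both in the top class. Their maxima ran from 588 to 8031 for pSmad1/5 (median 2988) and from 327 to 4732 for pSmad3 (median 1676), and Spearman's rho over these 12 places was 1. On the other 7 autosomes the last calls ended at different bases and had maxima of 13 to 60 for pSmad1/5 and 10 to 58 for pSmad3. The 2 kinds of chromosome did not overlap in either list. Chromosome 14, with 8031 and 4732, and chromosome 7, with 5395 and 3082, had the highest distal maxima for pSmad1/5 and pSmad3. Chromosome 4 had the highest of the rest, at 60 and 58. The sequence at these ends was not read here.

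**Figure D4:**
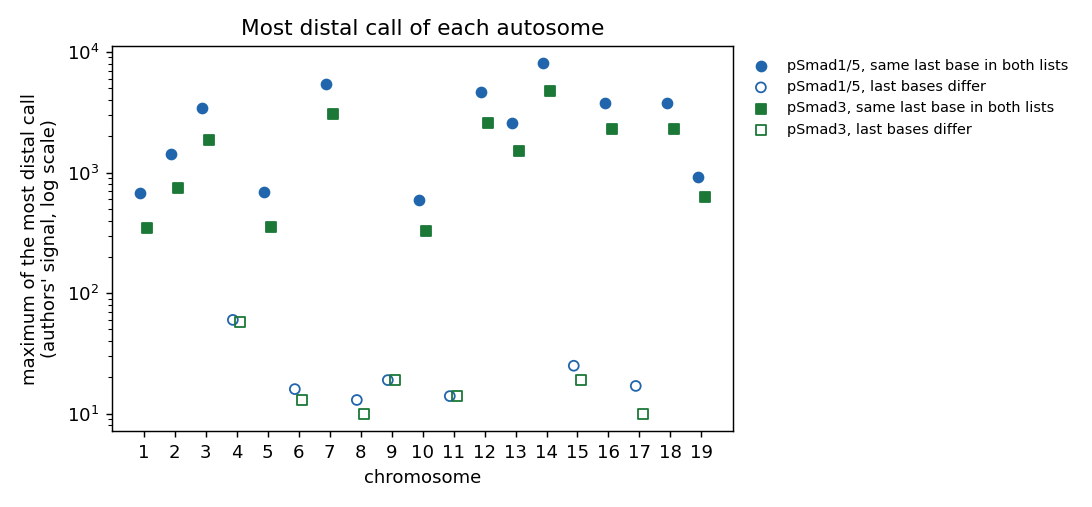
Maximum signal of the most distal call (y axis, log scale) on each autosome (x axis), for pSmad1/5 (circles, left of each pair) and pSmad3 (squares, right); filled symbols mark chromosomes on which both lists end at the same base. The 12 filled pairs lie between 327 and 8031 and the 7 open pairs between 10 and 60.

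The assembled chromosome starts were rich in high-maximum calls too. In mm10 the centromere-proximal 3 Mb of each autosome are a gap. The first calls of both lists began exactly at 3050001 on chromosome 4 and at 3100001 on chromosome 11, so the window may hold less sequence on some chromosomes. In the 1 Mb from base 3000001, 32 of 85 pSmad1/5 calls (37.6%, 27.4 to 48.8) and 30 of 93 pSmad3 calls (32.3%, 22.9 to 42.7) were high, on 13 chromosomes in each list. Elsewhere 430 of 8141 pSmad1/5 calls (5.28%) and 332 of 7477 pSmad3 calls (4.44%) were. Of the start calls 17 in each list were top-class. On chromosome 9 the first call had a maximum of 170615 for pSmad1/5 and 120275 for pSmad3. On chromosome 4, from 3050001, the highest call reached 663 for pSmad1/5 and 490 for pSmad3, with the maxima 0.5 bp apart.

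Of 20560 placed protein-coding genes, 31 lay under top-class calls of both antibodies. The pSmad1/5 top class touched 57 coding genes in all and the pSmad3 top class 33. The 31 shared genes were long, with a median of 122 kb, against 17.6 kb for all coding genes. Coding genes touched by other calls had medians of 35.3 kb for pSmad1/5 and 33.9 kb for pSmad3. The pSmad1/5 maximum lay inside the gene in 29 of the 31, and the 2 maxima lay within 20 bp of each other in 27. These counts are of genes and not of calls. Cmss1 and Filip1l lay under the same pair of calls. Gm4981, Duxf3 and LOC100504180 lay under another pair, and each gene was counted separately. Long genes offer more bases to any call, and gene length was not matched.

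The genes named next are examples, described by their known roles. After Chl1 the highest was Mdga2, a synaptic adhesion gene on chromosome 12, with 2732 for pSmad1/5 and 1949 for pSmad3, the maxima 2 bp apart and 163 kb from the closer gene end. Gphn, which encodes the synaptic scaffold gephyrin, had 291 for pSmad1/5 and 227 for pSmad3. Cntnap5c, a contactin-associated family member, had 561 and 417, and Ppp1r9a, which encodes the synaptic scaffold neurabin, had 260 and 140. In these 3 genes the maxima lay from 21.1 to 134 kb from the closer gene end. In these examples the maxima were deep inside the genes rather than at their ends. Some of the other shared genes had maxima close to a gene end or outside the gene.

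Further genes of the 31 have varied roles. Cdk5rap2, a centrosome gene, had 1217 for pSmad1/5 and 762 for pSmad3, with maxima 1 bp apart. Cdk8, a kinase of the Mediator complex, had 411 and 381, and Sos2, an activator of Ras, had 334 and 234. Dock2, an activator of Rac known from blood cells, had 409 for pSmad1/5 and 305 for pSmad3, with maxima 47 bp apart. Jarid2, a cofactor of Polycomb repressive complexes, had 283 and 250. Lars2, a mitochondrial leucyl-tRNA synthetase, had 461 and 427, 0.674 kb from a gene end. Dpp9, a dipeptidyl peptidase, was the only 1 of the 31 with the larger number in the pSmad3 list, 485 for pSmad1/5 and 526 for pSmad3, but the lists have their own scaling and the levels were not compared. At Duxf3, Gm4981 and LOC100504180, neighbours on chromosome 10 under 1 call, the maxima were 210 and 168.

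Few genes of the pathway and of the tooth were among the members, and few would be at the background share. A gene was counted when a high-maximum call touched its body or 10 kb on either side, which held for 1.53% of 20560 coding genes for pSmad1/5 and 1.13% for pSmad3. No high-maximum call of either antibody was counted for 19 BMP targets, 23 TGF-β targets, 19 Smad genes and partners, 37 dental mesenchyme genes, 30 dental epithelium genes or 13 endothelial and blood markers. At the background share, under 1 gene per list would carry one, so these zeros are close to the background. Calls below the threshold lay at 27.4% of all coding genes for pSmad1/5 and 24.7% for pSmad3. They lay at 5 BMP targets, 3 TGF-β targets, 5 Smad genes, 9 mesenchyme and 11 epithelium genes for pSmad1/5. For pSmad3 they lay at 6 BMP targets, 13 TGF-β targets, 6 Smad genes, 8 mesenchyme and 5 epithelium genes. As shares of their lists these ran from 13.0% to 36.7% for pSmad1/5 and from 16.7% to 56.5% for pSmad3, with TGF-β targets lowest for pSmad1/5 and highest for pSmad3.

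A ligand gene and a Hedgehog gene carried high-maximum calls. Beside the shares of all coding genes, 1.53% for pSmad1/5 and 1.13% for pSmad3, a count of 1 in lists this small is close to the background. Of 40 ligands, receptors and antagonists of both branches, only Bmp6, a BMP ligand, had a high-maximum call. It was a pSmad1/5 call at the lowest value inside the threshold, 33, on chromosome 13 at 38337961 to 38343213, with its maximum 7493 bp outside the gene. The overlapping pSmad3 call had a maximum of 22, below that list's threshold. Of 22 Hedgehog pathway genes, only Smo, the membrane transducer of the pathway, had one, with 1009 for pSmad1/5 and 763 for pSmad3. The maxima at Smo stood at bases 29748425 and 29748437 of chromosome 6, 12 bp apart and 12.9 kb from the closer gene end. Calls below the threshold lay at 10 of the 22 Hedgehog genes for pSmad1/5 (45.5%) and 13 for pSmad3 (59.1%), beside the shares of all coding genes given above.

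Several genes picked for known repeated sequence carried high-maximum calls. Of 11 such genes, 6 had one in both lists, Hjurp, Sfi1, Zc3h7a, Rn18s-rs5, Cdk8 and Muc6. The shares of all coding genes were 1.53% for pSmad1/5 and 1.13% for pSmad3, while Rn18s-rs5 is a ribosomal RNA gene. This list was drawn up for repeat content with earlier results known, so its count is a description. Hjurp, which loads the centromeric histone, had 41 for pSmad1/5 and 32 for pSmad3. The pSmad3 maximum there lay 11216 bp outside the gene. Sfi1, a centrin-binding centriole gene near the start of chromosome 11, had 303 and 276. Zc3h7a had 448 and 430 with maxima 8 bp apart, and Muc6, a gastric mucin gene with a tandem repeat, had 47 and 40. Of 9 neural and glial genes only Chl1 had a high-maximum call. The neural list also holds Lrrc4c, and both were added with their values known. Which of the high-maximum signals come from Smad-bound chromatin was not tested.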

How the data were processed

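CUT&RUN libraries of mouse molar tooth germs were digested for 30 min and read as 100 bp pairs, per the labels' protocols. Per the submitters' processing notes the tools were SEACR, deepTools, Bowtie2, bedtools and SAMtools on the build mm10, with settings not stated. The deposited lists hold, per the labels, coverage signal (total and maximum) for each SEACR region, in a scaling the sources do not state. Per-library values were not used, so read depth is unknown and no test over samples was possible. Signals were used only to describe and rank calls within a list.

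Lines sharing columns 4 to 6 were merged into calls with Python 3.11.15 and pandas 2.3.3, and calls were classed by the maximum against 2 and 10 times the list median. Overlap needed at least 1 bp between lines, and the partner was the call with the largest summed overlap. Genes (46714 placed, 20560 of them protein-coding), promoters and miRNA sequences came from RefSeq tables of GRCm38.p6. Of 207 genes fixed in 10 lists, 200 were placed. Promoter copies were found by shared 31-base words, a step planned after the tables were seen. Intervals are exact 95% Clopper-Pearson intervals from scipy 1.17.1. The counting steps were checked on simulated data. The members and lists were chosen with earlier results of these data known. Named genes are those at the 10 highest places of each list, coding genes under top-class calls of both antibodies, list members with a high-maximum call, calls at the threshold and the highest unshared calls, while genes of runs were named after their values were seen.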

Additional observations from a re-analysis of the deposited data

Results flagged for a closer look

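Calls outside chromosomes 1 to 19 were left out of the comparisons above, and many were high by the same thresholds. On unplaced and unlocalised scaffolds 49 of 66 pSmad1/5 calls (74.2%, exact 95% interval 62.0 to 84.2) and 49 of 61 pSmad3 calls (80.3%, 68.2 to 89.4) were high, with maxima up to 21209 and 16317. On chromosome Y 10 of 12 pSmad1/5 calls and 7 of 7 pSmad3 calls were high. On chromosome X 17 of 75 pSmad1/5 calls (22.7%, 13.8 to 33.8) and 18 of 43 pSmad3 calls (41.9%, 27.01 to 57.9) were high. The mitochondrial genome had 1 call in each list, with a maximum of 708 for pSmad1/5 and 540 for pSmad3. Autosomal shares were 5.62% and 4.78%.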

How the results depend on the processing

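Of 54 values under other settings, 27 stayed within the interval or tolerance of the reported value, 27 moved and 0 changed sign. Counted as single lines there were 842 high-maximum pSmad1/5 peaks, over 3 times the median 304 pSmad1/5 and 233 pSmad3 calls, and over 20 times the median 77 pSmad1/5 calls. A partner was found for 65.8% of pSmad1/5 and 86.2% of pSmad3 calls when it had to be high, for 82.6% of pSmad1/5 calls over 3 times the median, and for 90.9% of pSmad3 calls with overlap of 50% of the shorter call. All of these shares stayed above those of the other calls. Without top-class maxima in either list rho was 0.64 for pSmad1/5 and 0.69 for pSmad3. Outside genes lay 35.9% of pSmad1/5 and 37.0% of pSmad3 calls with a 5 kb window at gene ends, and 64.3% and 67.7% against protein-coding genes only. The other calls were not counted at these settings, so the contrast with them was not checked there. The median length of the longest line was 2800 bp for pSmad1/5, against a span of 3147.5 bp. One call per place brought pseudogenes to 10.1% and 12.6%. Within 100 kb of the gene, 19 (pSmad1/5) and 14 (pSmad3) listed genes had a high-maximum call, against 9 and 8 within 10 kb. Copied promoters made up 14.1% (pSmad1/5) and 15% (pSmad3) at 80% of shared words, 52.5% and 49% with any shared word, 9.38% and 6.25% with 1 promoter per run, and 43.9% and 43.8% for protein-coding genes. For all promoters the first 2 rules gave 2.35% and 11.3%. These promoter settings, and leaving out chromosome 4, were chosen after seeing the data. The causes of these changes were not tested. No paired analysis was possible because each antibody had 1 list for its 2 libraries. For the same reason no library could be left out, and intervals do not cover spread between libraries. Unknown depth, scaling and control libraries limit all signal values.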
